A study of Homo sapiens with 6 samples.

Results

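The miRNAs described here are the 4 mature arms of 2 human precursors, miR-21 and miR-590. They are hsa-miR-21-5p, hsa-miR-21-3p, hsa-miR-590-5p and hsa-miR-590-3p, 4 of the 2576 mature miRNAs in the count tables. The arms were chosen by name, because miR-21-5p and miR-590-5p carry the same seed, and with the EV and whole cell levels of both precursors in these libraries already known. For that reason the differences between EV and whole cells are given as a description, with fold changes and their spread but without a p-value. Counts came from 3 small RNA libraries of whole MIO-M1 cells (passages 22, 24 and 26, called whole cell replicates 1, 2 and 3) and 3 libraries of secreted EV (passages 23, 25 and 27, called EV replicates 1, 2 and 3). MIO-M1 is an established human Müller glial cell line, labelled WT for genotype, and every library came from this 1 line. The cells were grown in DMEM with FCS and then moved to medium that the labels give as serum-free and the methods as vesicle-depleted, from which the EV were collected by sequential centrifugation. RNA was isolated with a different kit from cell pellets and from EV pellets, so the kit and the source of the RNA cannot be told apart. Before extraction the EV were treated with RNase A, and the cells were not. The labels do not say whether passages were separate cultures, and the SD values below measure the spread between these libraries.

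Each pre-miRNA hairpin yields a 5p and a 3p strand, of which usually one is loaded into an Argonaute protein and persists while its partner is degraded. A loaded miRNA recognises target mRNAs mainly through its seed, bases 2 to 8 from the 5′ end, and represses them. miR-21-5p is a widely expressed miRNA that is induced in growth, injury and inflammation, including reactive glia, and it is known to repress the tumour suppressor PDCD4. Its partner strand miR-21-3p has another seed and is usually much less abundant.

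Mature sequences of 3 of the 4 arms were matched in RefSeq (GRCh38.p14). They are shown because the seed is what relates the precursors, and because the arms of miR-590 differ in base composition. Capitals mark bases 2 to 8.
hsa-miR-21-5p: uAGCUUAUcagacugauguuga
hsa-miR-590-5p: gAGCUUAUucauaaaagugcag
hsa-miR-590-3p: uAAUUUUAuguauaagcuagu
miR-21-5p and miR-590-5p share all 7 bases of the seed and 1 of the 14 bases from position 9 to position 22. No other mature miRNA of the tables with a matched sequence carries this seed. The seed of miR-590-3p was not found in another miRNA. The 3p strand instead holds, at positions 12 to 18, the reverse complement of the seed of its own 5p partner, printed here in capitals.
hsa-miR-590-3p: uaauuuuauguAUAAGCUagu
GC content was 36.4% for miR-21-5p and for miR-590-5p, and 19.0% for miR-590-3p, in which 4 of 21 bases are G or C. Of the 390 miRNAs past the filter with a matched sequence, none had a lower GC content than miR-590-3p. The tetramers GGAG and GGCU, read on the mature strand and linked in other work to EV sorting by hnRNPA2B1 and SYNCRIP, occur in 10.5% and 14.4% of those 390 miRNAs and in none of the 3 sequences above.

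In the count tables the arms of miR-21 lie on the plus strand of chromosome 17, with miR-21-5p at 57918634 to 57918655 and miR-21-3p at 57918672 to 57918692. The arms of miR-590 lie on the plus strand of chromosome 7, with miR-590-5p at 73605543 to 73605564 and miR-590-3p at 73605583 to 73605603. The header of the tables does not name a genome build. These positions are not those of GRCh38.p14, where miR-21-5p starts at 59841273 and miR-590-5p at 74191213. In GENCODE 29 (GRCh38), MIR590 lies in an intron of EIF4H, a translation initiation factor gene. MIR21 lies in an exon of 1 non-coding transcript of VMP1, an autophagy gene, and overlaps no coding sequence.

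The libraries held between 396025 counts, in whole cell replicate 1, and 3990900 counts, in whole cell replicate 2, with EV libraries from 1225541 to 3134561. Levels are given in CPM, the count of a miRNA scaled to the same total in each library, and library values are listed in replicate order. A count of 0 allows up to 3 counts, a limit of 7.58 CPM for whole cell replicate 1 and between 0.752 and 2.45 CPM in the other libraries. These limits and all intervals cover counting error only, since the sources name no step that merges copies of 1 starting molecule. Low counts were rarer in EV, where 25 to 44 miRNAs had between 1 and 9 counts, against 298 to 541 in whole cells, and the part of this in counts of 0 was not tested.

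miR-21-5p, the leading strand of its precursor, was among the most abundant miRNAs of EV and reached a smaller share of the whole cell libraries. The EV counts of this strand were 154443, 249941 and 329521, or 126020, 122602 and 105125 CPM. The whole cell counts were 9664, 42356 and 10719, or 24402, 10613 and 8561 CPM. The groups did not overlap, and the lowest EV library lay 4.31-fold above the highest whole cell library. Its share of the count averaged 11.8% ± 1.12 (SD, n = 3) over the EV libraries. The whole cell mean was 1.45% ± 0.862 (SD, n = 3), and the ratio of the means was 8.12. By rank it was the most abundant miRNA in EV replicates 1 and 2 and came second to miR-16-5p in EV replicate 3, while the whole cell libraries placed it at ranks 10, 22 and 23.

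The spread of miR-21-5p differed between the groups. Its coefficient of variation over the EV libraries was 9.51%, the second lowest among the 20 miRNAs most abundant in EV, whose median was 36.2%. Over the whole cell libraries it was 59.3%, the second highest of the same 20 miRNAs, whose median was 24.5%. Whole cell replicate 1, the library with the lowest total, held the high value, and without it the whole cell share was 0.959%. Only miR-148a-3p had a lower coefficient in EV and a higher one in whole cells.

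**Figure D1:**
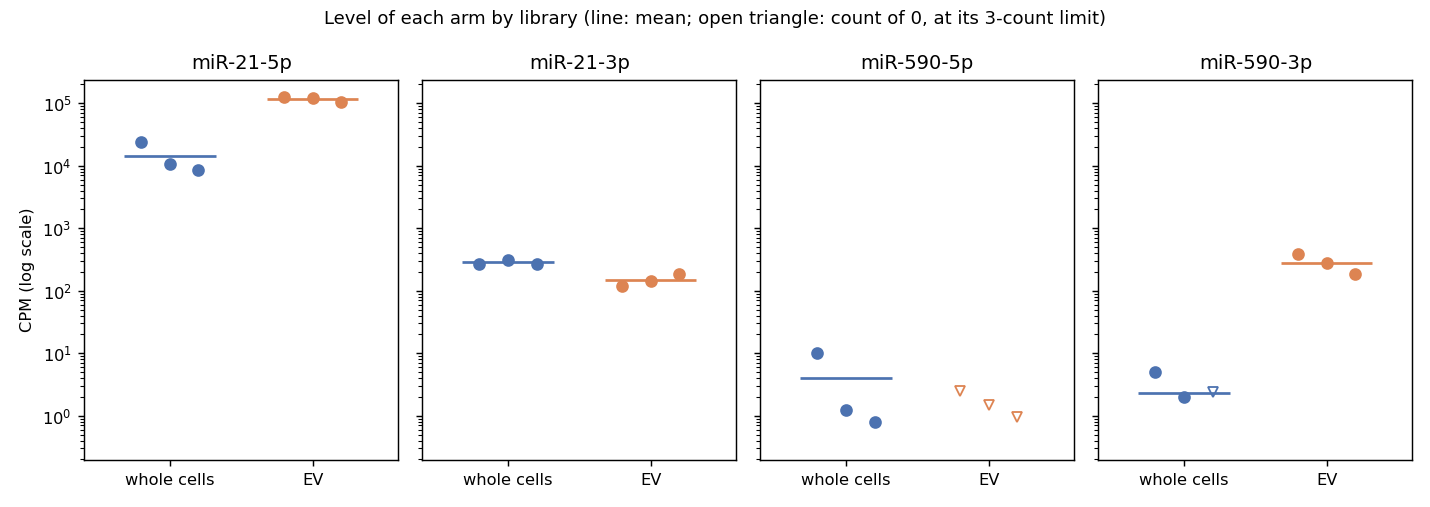
Level of each arm in CPM on a log axis, with 1 point for each of the 3 whole cell (blue) and 3 EV (orange) libraries, a line at the group mean, and an open triangle at the 3-count limit where the count was 0. The EV points lie above the whole cell points for miR-21-5p and miR-590-3p and below them for miR-21-3p, and miR-590-5p was counted in whole cells only.

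miR-21-3p, the partner strand, went the other way. Its whole cell level was 272.7, 311 and 271.5 CPM, from 108, 1242 and 340 counts. The EV level was 120.8, 144 and 189 CPM, from 148, 293 and 592 counts. Every EV library lay below every whole cell library, with an EV mean of 151 ± 34.6 CPM (SD, n = 3), a whole cell mean of 285 ± 22.6 CPM (SD, n = 3) and a 1.89-fold difference. Because miR-21-5p takes a larger share of the EV count and so lowers all other shares there, the level was also computed with miR-21-5p left out of the total, a choice made after the data had been seen. The EV mean was then 171 ± 37.0 CPM (SD, n = 3) and the whole cell values were 279.5, 314.5 and 273.9 CPM, and the groups still did not overlap.

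The arms of 1 library share its depth, so their ratio does not depend on the library total. For each read of miR-21-3p the whole cell libraries held 89.5, 34.1 and 31.5 reads of miR-21-5p, and the EV libraries 1044, 853 and 557. The 5p strand led in all 6 libraries, and the EV ratios all lay above the whole cell ratios. As a share of the reads of both arms, miR-21-3p was 1.11%, 2.85% and 3.07% in the whole cell libraries and 0.0957%, 0.117% and 0.179% in the EV libraries. The exact 95% intervals of these shares (Clopper-Pearson) did not overlap between the groups, the nearest bounds being 0.907% in whole cell replicate 1 and 0.194% in EV replicate 3. On the log2 scale the ratio of 5p to 3p, with 0.5 counts added to each arm, averaged 5.51 ± 0.84 (SD, n = 3) over whole cells, against 9.63 ± 0.46 (SD, n = 3) over EV, a difference of 4.11.

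miR-590-3p was counted in all EV libraries and was at or near the limit of detection in whole cells. The EV counts were 476, 558 and 571, or 388, 274 and 182 CPM. The whole cell counts were 2, 8 and 0. The groups did not overlap. The mean EV level of this strand, 281 ± 103.3 CPM (SD, n = 3), lay in the range that miR-21-3p had in whole cells, while EV replicates 1 and 3 lay outside it. Over the summed counts, 1605 in EV and 10 in whole cells, the level was 141-fold higher in EV, with an exact 95% counting interval from 76.7 to 296-fold that takes no account of the spread between libraries. miR-590-3p passed the filter only through the EV libraries, so some difference was a condition of its being fitted at all.

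miR-590-5p, the strand with the seed of miR-21-5p, was read 4, 5 and 1 times in the whole cell libraries and never in an EV library. In CPM the whole cell values were 10.1, 1.25 and 0.799, and the EV libraries allow up to 2.45, 1.47 and 0.957 CPM. Whole cell replicate 1 lay above all of these limits, whole cell replicate 2 above that of EV replicate 3 only, and whole cell replicate 3 under each of them, so single libraries did not separate the groups. Summed over libraries, the count was 10 for whole cells and 0 for EV. The whole cell level was then 1.77 CPM, 3.78-fold the 0.469 CPM that the EV libraries together allow. This ratio takes no account of the counting error of the 10 whole cell reads or of the spread between libraries. It was 2.44 without whole cell replicate 1 and 6.47 without whole cell replicate 2. miR-590-5p did not pass the filter and was left out of the reported fit. An edgeR fit without the filter gave a log2 fold change of -5.76 ± 2.02 (SE) beside a median of -2.41 over 1188 miRNAs, and with EV at 0 this value depends on the prior count.

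The arms of miR-590 were thus counted in unlike proportions. Over the 3 whole cell libraries 10 reads came from each arm, which gives a 5p share of 50.0% with an exact 95% interval from 27.2% to 72.8%. Over the EV libraries 0 of 1605 reads came from the 5p arm, which allows a share of up to 0.187%. Within single EV libraries the 3p strand had at least 159, 186 and 190 reads for each read of 5p that a count of 0 allows. The whole cell share rests on 6, 13 and 1 reads, and the leading arm there cannot be named. With 0.5 counts added to each arm the log2 ratio of 5p to 3p averaged 0.60 ± 1.13 (SD, n = 3) over whole cells. The EV average was -10.06 ± 0.14 (SD, n = 3). Since the EV value depends on the number added, the change of -10.66 is not a measured size, and with 4 CPM added in place of 0.5 counts it was -6.33.

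These arm ratios were set beside those of all precursors with a 5p and a 3p name in the tables and a summed level of both arms past the filter, 245 in number. The log2 ratio of 5p to 3p was higher in all EV libraries than in all whole cell libraries for 20.4% of them and lower for 19.6%, and miR-21 was among the first group and miR-590 among the second. The absolute change had a median of 2.64 over the 245 precursors. By size, miR-21 ranked 75, and miR-590 was given no rank because the number added to a count of 0 sets its value. The change was toward the arm that led in whole cells for 121 precursors, miR-21 among them, and away from it for another 121. Of the 245 precursors, 14 had no count of either arm in EV. The number added sets the EV ratio of these 14. It also sets the size for further precursors with a single arm at 0 in EV libraries, miR-301a among them, whose number was not counted. All of these remain in the shares, median, rank and counts by direction given for the 245. A different arm led in EV and in whole cells for 32 precursors, and miR-590, with equal counts of its arms in whole cells, could not be placed. Restricting the comparison to the 110 precursors with each arm past the filter, a choice made after the data had been seen, placed miR-21 at rank 36 by size and at rank 16 from the highest. These 110 still include precursors with an arm at 0 in single EV libraries, so these ranks also depend on the number added.

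**Figure D2:**
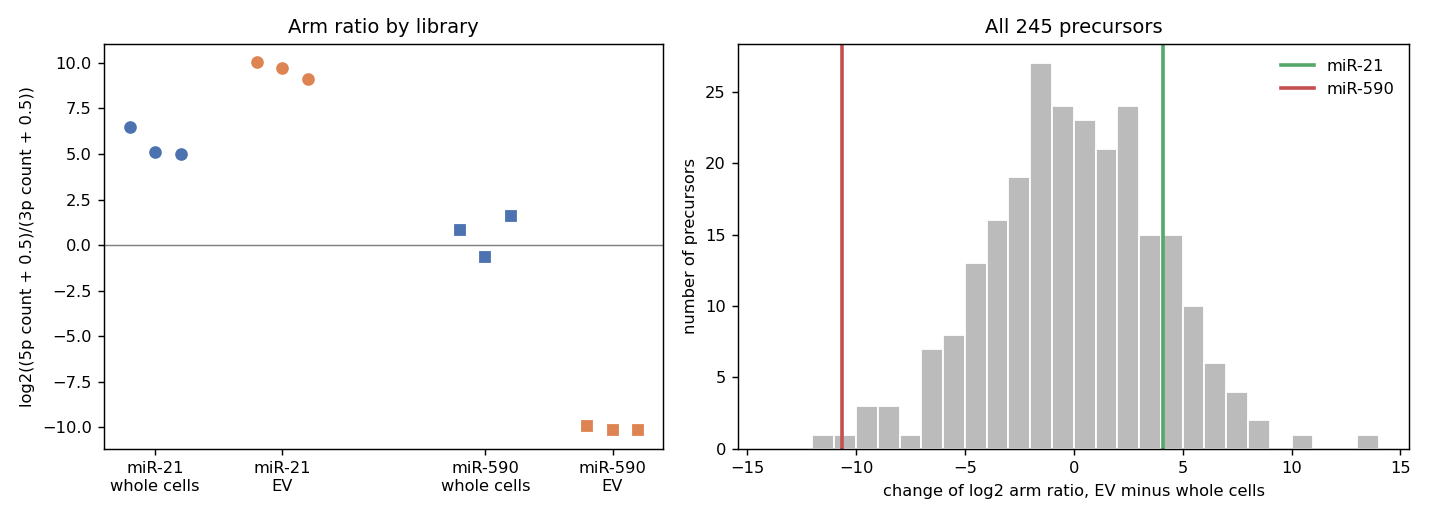
Left, log2 of the 5p count over the 3p count, with 0.5 added to each, for miR-21 and miR-590 in the 3 whole cell (blue) and 3 EV (orange) libraries. Right, a histogram of the change of this ratio, EV minus whole cells, over 245 precursors, where the line for miR-21 stands at 4.11, inside the bulk of the precursors, and that for miR-590 at -10.66, near the lower end, a value set by the 0.5 added to EV counts of 0.

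Read as a pair with 1 seed, miR-21-5p and miR-590-5p were of very unequal abundance. Each read of miR-590-5p stood against 2416, 8471 and 10719 reads of miR-21-5p in the whole cell libraries. In EV, with miR-590-5p at 0, each read that this allows stood against at least 51481, 83314 and 109840 reads. miR-21-5p made up at least 99.9% of the reads with this seed in each library. The summed counts put the strands on opposite sides, with miR-21-5p higher in EV and miR-590-5p higher in whole cells, the latter from 10 counts in all. On the log2 scale, with 0.5 counts added, the ratio of miR-21-5p to miR-590-5p was 6.57 higher in EV, a size set in part by that number.

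All 430 miRNAs that reached 5 CPM in at least 3 libraries were fitted together with edgeR, with TMM factors. In this fit the log2 fold change of EV against whole cells was 3.11 ± 0.43 (SE) for miR-21-5p, 7.19 ± 1.21 (SE) for miR-590-3p and -0.91 ± 0.50 (SE) for miR-21-3p. The median of all fitted miRNAs was -0.23 and moved to -0.41 with RLE factors, and relative to this median miR-21-5p stood at 3.34, miR-590-3p at 7.43 and miR-21-3p at -0.68. From the highest value down they ranked 50, 8 and 267 of 430. The limits for a call were an adjusted p below 0.01 (edgeR, Benjamini-Hochberg) and a log2 fold change of 2.5 or more in size. Calls higher in EV made up 4.42% of the miRNAs and included miR-21-5p and miR-590-3p, while calls lower in EV made up 1.40% and included no arm of either precursor. All EV libraries lay above all whole cell libraries for 20.9% of the miRNAs and below them for 27.4%. As the arms were chosen with this contrast known, nothing is read from these counts.

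The calls rested on single libraries more than the estimates did. miR-21-5p was called in 2 of the 6 fits with 1 library left out, those without whole cell replicate 1 and without EV replicate 3, and miR-590-3p in 1, that without EV replicate 3. Leaving out any of the other libraries ended the calls. The fold change of miR-21-5p stayed between 2.80 and 3.37 in these fits and that of miR-590-3p between 6.48 and 7.61. DESeq2, the tool used in the study, called 16.7% of the miRNAs in either direction and called the same 2 arms, with log2 fold changes of 2.82 ± 0.49 (SE) for miR-21-5p and 7.09 ± 0.95 (SE) for miR-590-3p. For miR-21-3p it gave -1.12 ± 0.46 (SE).

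**Figure D3:**
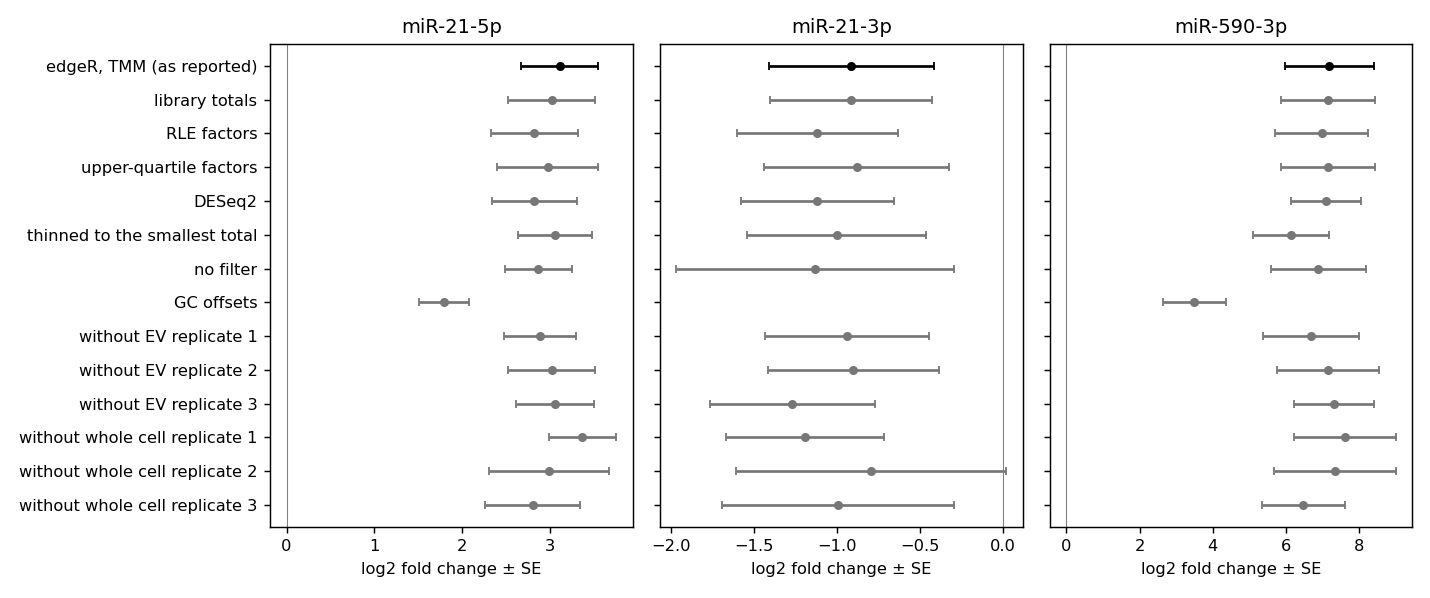
Log2 fold change of EV against whole cells with its SE (bars) for miR-21-5p, miR-21-3p and miR-590-3p in the reported fit (black) and under each alternative (grey). The estimates stay on their side of 0 in each fit shown, and those of miR-21-5p and miR-590-3p are lowest, at 1.79 and 3.50, where a GC trend was removed, an alternative not computed for miR-21-3p.

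Base composition moved with the fold change. Over the 390 filtered miRNAs with a sequence, the log2 fold change fell by 1.01 for each 10 percentage points of GC content (Spearman's rho = -0.42 across miRNAs, which share the same 6 libraries and are not independent replicates). All 5 miRNAs with up to 25% GC, miR-590-3p among them, had a positive fold change, with a median of 4.79. Of these, miR-590-3p, miR-374a-3p and miR-3613-5p passed the filter only through the EV libraries. Their positive fold change was thus largely a condition of being fitted, and the sign is not read as a result. miR-374a-3p was counted 64, 63 and 193 times in EV against 0, 1 and 0 times in cells. Another of the 5, miR-190a-5p, was counted in all whole cell libraries. It was lowest of the 5 at 1.13 and had 0 counts in EV replicate 3. Among the 18 other miRNAs within 1 percentage point of the GC content of miR-21-5p the median was 0.65, and 2 of them lay above miR-21-5p. When a trend on GC content was removed from each library before the fit, the log2 fold change was 1.79 ± 0.28 (SE) for miR-21-5p and 3.50 ± 0.87 (SE) for miR-590-3p, and neither was called. The part of GC content in the difference between EV and whole cells was not tested further.

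**Figure D4:**
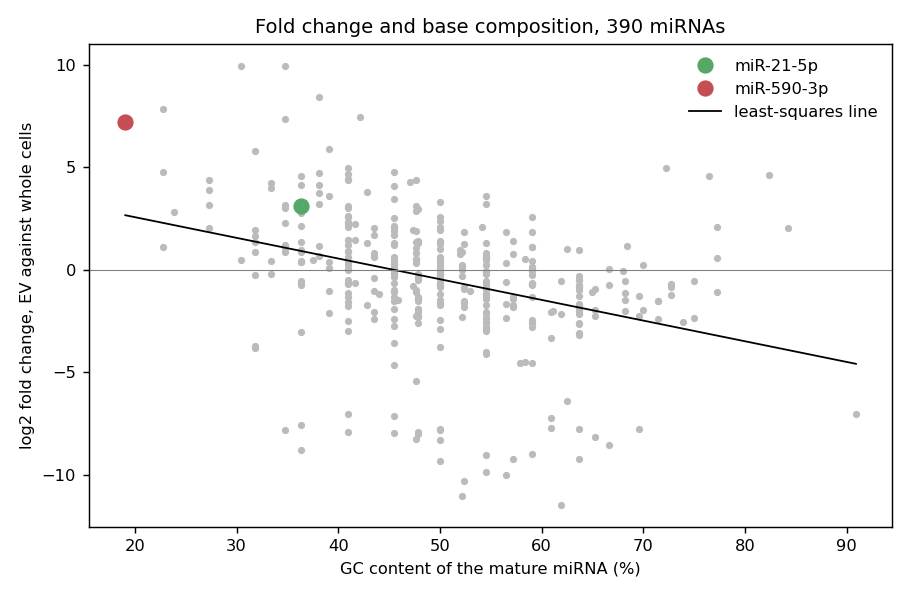
GC content of the mature miRNA in percent against the log2 fold change of EV against whole cells for 390 miRNAs (grey points), with the least-squares line in black. miR-590-3p (red) has the lowest GC content, 19.0%, and miR-21-5p (green) has 36.4%, and both lie above the line.

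As a description of the same contrast, each strand of miR-21 was set beside the miRNAs of similar level in whole cells. Of the 23 miRNAs within a factor of 2 of its whole cell level, the highest had a log2 fold change of 1.36 and the median was -0.81. For miR-21-5p itself it was 3.11. For miR-21-3p, 32 of 53 such miRNAs lay above it and 21 below.

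The miRNAs whose pattern over the 6 libraries was nearest to each arm were found from the root mean square difference of log2(CPM + 4), TMM-scaled and centred on the mean of each miRNA. Over 429 miRNAs the median distance from miR-21-5p was 2.09. The nearest was miR-126-3p, an endothelial miRNA encoded in EGFL7, at 0.19. miR-301a-3p at 0.32, miR-29b-3p at 0.33 and miR-369-3p at 0.33 came next. The counts of miR-126-3p were 37, 154 and 38 for whole cells against 686, 1412 and 1337 for EV. Like miR-21-5p, each of these 4 was higher in EV.

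Nearest to miR-590-3p were miR-126-5p at 0.47, miR-136-3p at 0.56, miR-142-3p, a miRNA of blood cells, at 0.59 and miR-148a-3p at 0.62, with a median of 3.18. All were higher in EV, and miR-126-5p (0, 2 and 0 counts in whole cells) and miR-142-3p (0, 0 and 1) were at the limit of detection in whole cells as miR-590-3p was. Nearest to miR-21-3p were miR-323a-3p at 0.14, miR-409-3p at 0.18, miR-342-5p at 0.27 and miR-148b-3p at 0.28, with a median of 1.20. miR-323a-3p and miR-409-3p belong to the imprinted DLK1-DIO3 cluster. So do miR-369-3p, near miR-21-5p, and miR-136-3p, near miR-590-3p, which were higher in EV, so the cluster is not particular to the neighbours of miR-21-3p. None of the 4 miRNAs nearest to an arm of one precursor was an arm of the other. The order depends on the 2 groups, which dominate the pattern, and likeness is given as a description only.

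**Figure D5:**
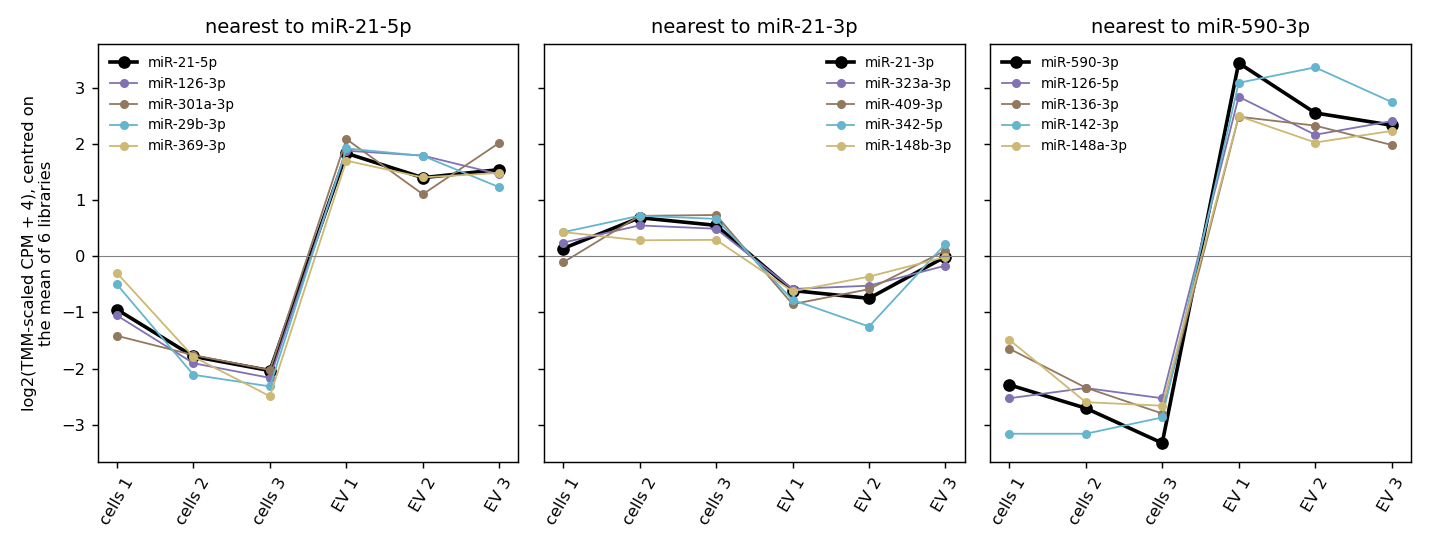
Log2(CPM + 4), TMM-scaled and centred on the mean of 6 libraries, for miR-21-5p, miR-21-3p and miR-590-3p (black) and the 4 miRNAs nearest to each (coloured); lines join the values of 1 miRNA. The profiles around miR-21-5p and miR-590-3p are low in whole cells and high in EV, and those around miR-21-3p are lower on average in EV, where EV replicate 3 comes near the mean.

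Several markers of other cell types were higher in EV as well. A list of 10 miRNAs of blood cells, endothelium and liver, which serum carries, summed to 265, 924 and 1204 CPM in the whole cell libraries and to 2592, 3213 and 2253 CPM in the EV libraries. miR-486-5p, the most abundant of them, was at 164.1, 875.2 and 1161.2 CPM in whole cells and 1216.6, 1711.4 and 1196.7 CPM in EV. Its edgeR log2 fold change was 0.78 ± 0.70 (SE), and it was not called. Without miR-486-5p the sums were 43.1 and 48.9 CPM in whole cell replicates 3 and 2, and 1056 to 1502 CPM in EV. In whole cell replicate 1 this sum was higher, though below the 164.1 CPM of miR-486-5p there. The groups overlapped neither with nor without miR-486-5p, and leaving it out widened the gap between them. Of the 6 that passed the filter, miR-126-5p, miR-142-3p and miR-451a did so through the EV libraries alone. A higher level in EV was thus largely a condition of their being fitted, and their calls are not read as a result. Among the 6, edgeR called miR-126-3p, miR-126-5p and miR-142-3p higher in EV and none lower, where 4.42% of all miRNAs were called higher. DESeq2, with 16.7% of all miRNAs called in either direction, also called miR-122-5p and miR-451a higher. miR-451a, which marks red blood cells, was counted 160, 69 and 424 times in EV and in no whole cell library. Between 4 and 7 of the 10 were at 0 in a whole cell library and between 0 and 4 in an EV library. miR-21-5p is also present in blood and serum, and the part of serum or blood RNA in its level was not tested. The Müller glial markers were counted in every library. miR-204-5p was at 7630 to 13883 CPM in whole cells and 1862 to 3106 CPM in EV, and miR-125b-5p at 100534 to 115967 CPM and 21963 to 70113 CPM, both without overlap. The same held for 27.4% of the 430 fitted miRNAs, so nothing particular to these markers is read from it. miR-9-5p, at 7471 to 12517 CPM and 9271 to 22652 CPM, and let-7a-5p, at 105836 to 163204 CPM and 56665 to 111899 CPM, overlapped between the groups. The neuronal marker miR-124, in either arm, was at 0 in all 6 libraries. Of the photoreceptor markers, miR-183-5p was at 91.8 to 99.7 CPM in whole cells and 302 to 483 CPM in EV. For miR-182-5p the levels were 129 to 215 CPM in whole cells and 668 to 875 CPM in EV. All EV libraries lay above all whole cell libraries for 20.9% of the 430 fitted miRNAs, so nothing particular to these markers is read from it. The third, miR-96-5p, was at 6.39 to 25.3 CPM in whole cells. In EV it was at 44.6 CPM in replicate 2 and at 0 in replicates 1 and 3.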

How the data were processed

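Small RNA libraries of 3 whole cell and 3 EV samples were analysed. The authors trimmed adapters with cutadapt, aligned the reads to miRBase and deposited the raw count of each mature miRNA per library. Per the file headers, reads on the sense strand (setting 1) were counted by featureCounts 1.5.0-p1, after Bowtie 1 and on miRBase release 20. The methods and the submitters' processing notes name Bowtie2. The library kit (QIAseq) can mark single molecules, and the sources do not say that marks were counted. Groups were taken from the fraction named in the labels, and replicates were numbered in accession order, so the numbers do not pair libraries. No library was a copy of another, since chi-square over degrees of freedom was at least 41.9 between replicates.

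CPM used the total count of each library. miRNAs at 5 CPM or more in at least 3 libraries were fitted with edgeR 4.0.16 (quasi-likelihood test, TMM, Benjamini-Hochberg) in R 4.3.3, with DESeq2 1.42.0 as an alternative, and both were tested on simulated data. Log2 levels used a pseudocount of 4 CPM and arm ratios 0.5 counts. Share intervals are exact 95% binomial intervals. Mature sequences came from RefSeq by name, for 2262 of the 2576 miRNAs and 390 of the 430 fitted. Alternatives were the tool, RLE, upper-quartile or no factors, no filter, thinning to 396025 counts (seed 1), loess GC offsets, each library left out, looser thresholds, other pseudocounts and other totals. The arms, lists and tests were chosen with earlier results of these data known. The named miRNAs were the 4 arms, those sharing a seed, the 4 nearest in pattern to each fitted arm, and the called or most abundant members of the marker lists. The result of 1 other list is not reported here. Figures were drawn with matplotlib 3.10.9.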

Additional observations from a re-analysis of the deposited data

How the results depend on the processing

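No paired analysis was possible because the labels give passages that differ between the groups and no shared replicate number. The number of called miRNAs, 25 in the reported fit, was 72 with DESeq2, 45 without the filter, 38 with upper-quartile factors, 93 at an adjusted p below 0.05 with the same fold limit and 123 with no fold limit, and from 0 to 31 with 1 library left out. It was 0 without whole cell replicate 3 (121 at an unadjusted p below 0.05) and without EV replicate 2 (169), and with RLE factors the call of miR-590-3p was lost. Removal of the GC trend moved the log2 fold change of miR-21-5p to 1.79 and of miR-590-3p to 3.50, and thinning to the smallest total moved the latter to 6.14. With 1 library left out, miR-21-5p ran from 2.80 to 3.37, miR-21-3p from -1.27 to -0.79 and miR-590-3p from 6.48 to 7.61. The arm ratio change of miR-590 was -6.33 with 4 CPM added, -9.45 with 1 count and -7.10 after thinning, since a fixed number added to a count of 0 sets its size, and for the same reason the log2 ratio of miR-21-5p to miR-590-5p, 6.57 higher in EV as reported, was 3.996 higher with 4 CPM added and 4.23 higher after thinning. The median arm ratio change of all precursors, -0.07, reversed to 0.016 after thinning, and ran from -0.42 to 0.40 with 1 library left out, reversing to 0.17 without whole cell replicate 2 and to 0.40 without EV replicate 3. The cause was not tested. miR-590-5p was fitted only without the filter. The ratios for its summed counts with a library left out were chosen after the data had been seen. The depth of whole cell replicate 1 limits every low value there.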
